A study of Mus musculus with 6 samples.

Results

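The 4 mouse genes of the Tsc22 domain family, *Tsc22d1*, *Tsc22d2*, *Tsc22d3* and *Tsc22d4*, were taken by symbol from RNA-seq of osteoblasts treated with corticosterone. All 4 were among the 24016 genes measured, and all 4 passed the filter on low values, which removed no gene. The cells were MC3T3-E1 subclone 4, a preosteoblast line from mouse calvaria, of wild-type genotype according to the labels. Osteogenic differentiation lasted 6 days with ascorbic acid (50 μg/ml) plus β-glycerophosphate (10 mM). Then 3 cultures were given vehicle and 3 were given corticosterone, the principal murine glucocorticoid, at 100 nM for 24 h. The protocol attached to the labels of both groups also lists 10 nM calcitriol during treatment. A single clonal line and 1 time point were studied, and the passage is labelled 4 to 10 under growth but 6 to 12 as the batch.

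Proteins of this family share a short, highly conserved stretch, the TSC box, followed by a leucine zipper through which they form homodimers and heterodimers with each other. *Tsc22d1* was found as a gene stimulated by transforming growth factor beta (TGF-β), *Tsc22d3* encodes GILZ, the glucocorticoid-induced leucine zipper, and *Tsc22d4* has been linked to lipid metabolism in the liver. GILZ is a classical direct target of the glucocorticoid receptor and binds the p65 subunit of NF-κB, while long forms of the other members bind the pseudokinase NRBP1 and act with WNK kinases in the control of cell volume.

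The genes lie on separate chromosomes, as annotated by GENCODE on GRCm38. *Tsc22d1* (ENSMUSG00000022010) occupies chr14:76414961-76507765 on the plus strand, with 16 annotated transcripts, 10 of them protein-coding. *Tsc22d2* (ENSMUSG00000027806) occupies chr3:58414715-58466783 on the plus strand, with 4 transcripts, 2 of them coding. *Tsc22d3* (ENSMUSG00000031431) occupies chrX:140539528-140600659 on the minus strand, with 6 transcripts, 3 of them coding. *Tsc22d4* (ENSMUSG00000029723) occupies chr5:137745730-137768450 on the plus strand, with 9 transcripts, 6 of them coding. Coding length separates *Tsc22d3*, with 339 to 603 bases, from the genes with long forms, which reach 3231 bases in *Tsc22d1*, 2307 in *Tsc22d2* and 1527 in *Tsc22d4*. The values are sums per gene, so short and long forms cannot be told apart.

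What the members share is shown by 90 coding bases in the TSC box, printed 5′ to 3′ from 1 coding transcript of each gene, with capitals for the bases identical in all 4. The window, and the transcripts of the other genes, were chosen for the highest summed identity to *Tsc22d3*, in frame and without gaps. The identities given are thus those of the most alike stretch, not of the whole coding sequence.
Tsc22d1: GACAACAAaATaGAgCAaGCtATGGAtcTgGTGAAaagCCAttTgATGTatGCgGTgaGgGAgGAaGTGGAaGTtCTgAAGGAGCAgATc
Tsc22d2: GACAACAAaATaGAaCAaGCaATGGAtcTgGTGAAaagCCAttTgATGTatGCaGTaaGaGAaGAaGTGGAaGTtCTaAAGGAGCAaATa
Tsc22d3: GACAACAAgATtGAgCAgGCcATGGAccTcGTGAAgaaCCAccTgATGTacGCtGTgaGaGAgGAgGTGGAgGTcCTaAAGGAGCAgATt
Tsc22d4: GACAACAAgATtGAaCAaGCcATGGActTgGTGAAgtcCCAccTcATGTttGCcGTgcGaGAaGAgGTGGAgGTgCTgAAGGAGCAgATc

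Of these 90 positions, 63 were identical in all 4 genes. In each gene the window spans a pair of neighbouring exons, with 24 bases in the first and 66 in the second. In *Tsc22d3* these are chrX:140542105-140542128 and chrX:140541042-140541107. Pairwise identity was highest between *Tsc22d1* and *Tsc22d2*, at 81 of 90 bases, and reached 83.3% between *Tsc22d3* and *Tsc22d4*, with 76.7% to 80.0% for the other pairs. The longest stretch without a mismatch was 32 bases, between *Tsc22d1* and *Tsc22d2*, and 8 to 15 bases in the other pairs.

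Few stretches of 31 bases were shared between members. *Tsc22d1* and *Tsc22d2* shared 2 stretches of 31 bases (31-mers) and no other pair of members shared one. Counting all annotated transcripts of other genes, 1.40% of the 31-mers of *Tsc22d3* (61 of 4364) occurred elsewhere, as did 0.869% of those of *Tsc22d4*, 0.12% of those of *Tsc22d1* and 0.018% of those of *Tsc22d2*. No annotated gene overlapped any of the 4 on either strand.

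The libraries held 18992332, 18259063 and 16020401 reads on genes with corticosterone and 19076586 to 25638645 with vehicle, and the values used are read counts divided by 1 size factor per library (normalized counts). The first principal component, with 61.4% of the variance, separated the treatments. All 7 osteoblast markers examined were present, with a summed level of 701968 to 735939 with vehicle and 627405 to 667703 with corticosterone, most of it *Col1a1*. All 7 fell without overlap (limma adjusted p of at most 0.035), with log2 fold changes of -1.87 for *Bglap*, -1.34 for *Sp7*, -1.30 for *Pth1r*, -1.20 for *Ibsp*, -1.16 for *Runx2*, -0.41 for *Alpl* and -0.15 for *Col1a1*. Of all genes, 14.9% were lower without overlap and 8.2% fell at a limma adjusted p under 0.05. The summed levels of the markers analysed for other cell types were 46.5 to 62.4 and 43.5 to 47.5 for leukocytes, 0 to 7.30 and 1.07 to 5.12 for endothelial cells, 7.72 to 21.1 and 108 to 133 for adipocytes, and 3478 to 3899 and 2874 to 2929 for chondrocytes, with vehicle and corticosterone respectively. The adipocyte sum was almost entirely *Fabp4*, with at most 2 reads of *Plin1* in any library. The endothelial sum was *Pecam1* alone, with at most 9 reads in any library. *Ptprc*, *Adgre1*, *Cdh5*, *Kdr*, *Adipoq*, *Acan* and the muscle markers *Myod1* and *Myog* were not analysed here. The part of these shifts in the results below was not tested, and a change in the makeup of the cultures and a change in RNA per cell cannot be told apart in bulk RNA.

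*Tsc22d3* was the member that rose. The normalized counts were 509, 481 and 542 with vehicle and 1471, 1333 and 1511 with corticosterone. Each corticosterone library was above each vehicle library, which 14.7% of all genes showed in this direction. The log2 fold change was 1.49 (SE 0.07), a 2.82-fold increase with a 95% interval of 2.56 to 3.10, and the limma adjusted p was 9.5e-11. Over all genes, 8.49% rose at an adjusted p under 0.05 and 1.38% also exceeded a log2 fold change of 1, which *Tsc22d3* did. Among the 10558 genes averaging 100 or more normalized counts, its log2 fold change ranked 56 from the top. The exact permutation p was 0.1, the smallest that 3 against 3 libraries allow.

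*Tsc22d1*, the most abundant member, had normalized counts of 4872, 5157 and 5060 with vehicle and 4997, 5182 and 5257 with corticosterone. The groups overlapped, and the log2 fold change of 0.03 (SE 0.04) did not pass the test (limma adjusted p = 0.68). The 95% interval of the log2 fold change ran from -0.05 to 0.12. Scaling each library to the same total or quantile normalization gave a negative sign, and neither value passed the test.

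*Tsc22d2*, the member with the longest merged exons (11244 bases), had normalized counts of 2708, 2784 and 2634 with vehicle and 2349, 2588 and 2570 with corticosterone. Each corticosterone library was below each vehicle library, which 14.9% of all genes showed in this direction and 29.6% in either. At an adjusted p under 0.05, 8.2% of all genes fell. The log2 fold change was -0.12 (SE 0.05), with an interval of -0.22 to -0.01, and it did not pass the test after adjustment (limma adjusted p = 0.13). With libraries scaled to the same total, the value was -0.16 and the limma adjusted p was 0.032, and with quantile normalization the limma adjusted p was 0.029.

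*Tsc22d4* had normalized counts of 2077, 1928 and 2031 with vehicle and 2036, 2018 and 2152 with corticosterone. These groups overlapped too, with a log2 fold change of 0.04 (SE 0.05), an interval of -0.06 to 0.14 and a limma adjusted p of 0.68. The sign of this value was lost with scaling to the same total. Thus 1 of 4 members passed the test, against 16.7% of all genes and 32.6% of those averaging 100 or more, as all 4 did, in either direction. Past a log2 fold change of 1 as well were 2.78% of all genes. With the values scaled as deposited, the 95% intervals of the other 3 reached at most 0.22 in absolute size on the log2 scale. These intervals do not include the choice of scaling, which moved *Tsc22d2* to -0.16 with libraries scaled to the same total.

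**Figure D1:**
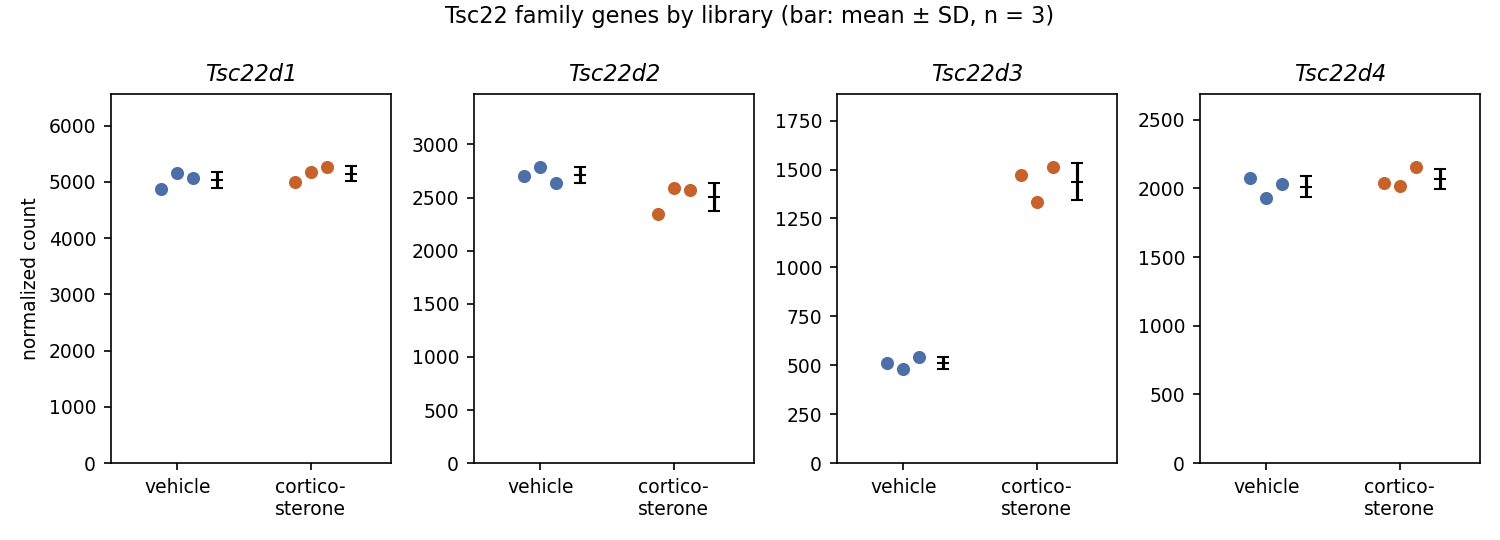
Normalized count (vertical axes, each from 0) of the 4 family genes in the 3 vehicle and 3 corticosterone libraries, with 1 point per library and a bar for the mean ± SD (n = 3). The corticosterone points of Tsc22d3 lie between 1333 and 1511, above all vehicle points, whereas those of Tsc22d1 and Tsc22d4 overlap with vehicle and those of Tsc22d2 lie just below it.

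Depth was not the same for all members. *Tsc22d3* rested on 524 to 628 reads a library with vehicle and 1181 to 1374 with corticosterone, whereas *Tsc22d1* rested on 4109 to 6682 reads in any library. From counting alone, the coefficient of variation of *Tsc22d3* would be 4.13% with vehicle and 2.83% with corticosterone, and the observed values were 5.99% and 6.49%. For *Tsc22d1* the observed variation was 2.89% and 2.60%, for *Tsc22d2* 2.76% and 5.32%, and for *Tsc22d4* 3.80% and 3.51%. Whether these exceed counting error was not tested.

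**Figure D2:**
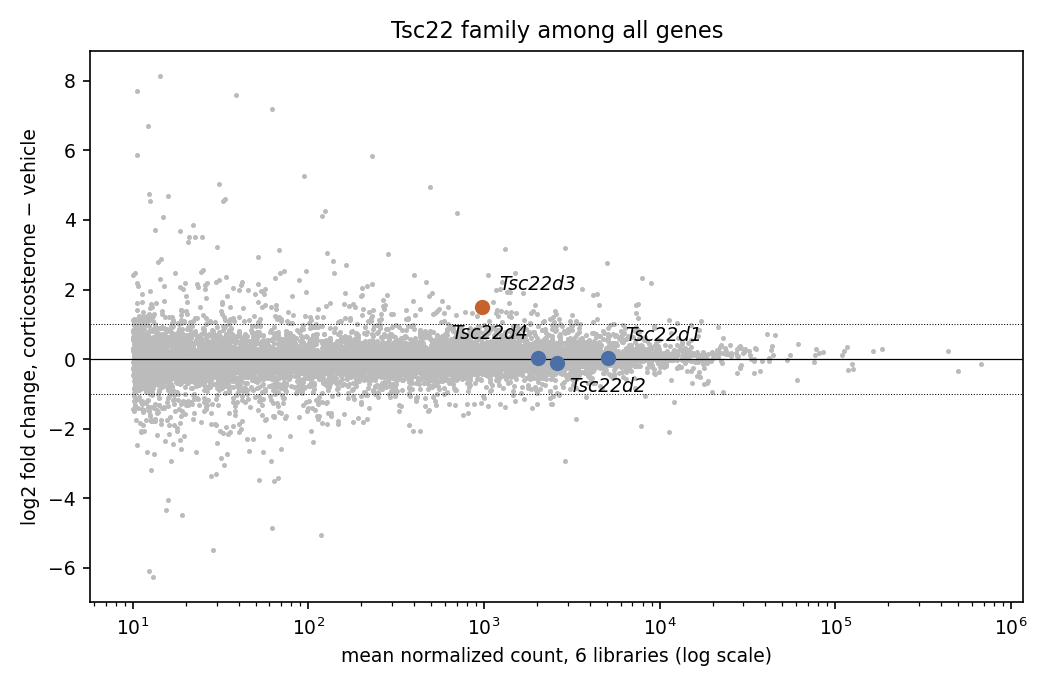
Log2 fold change (corticosterone minus vehicle) against the mean normalized count of the 6 libraries (log scale) for genes averaging 10 or more, with the family members as large points, orange for an adjusted p under 0.05, and dotted lines at a log2 fold change of 1 and -1. Tsc22d3, at 1.49, lies above the band of most genes, and Tsc22d1, Tsc22d2 and Tsc22d4 lie within it.

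The response of *Tsc22d3* was next compared with that of each paralog in the same libraries, a ratio in which the size factors cancel. The log2 ratio of *Tsc22d3* to *Tsc22d4* was -2.03, -2.003 and -1.91 with vehicle and -0.47, -0.60 and -0.51 with corticosterone. The ratio to *Tsc22d1* was -3.26, -3.42 and -3.22 with vehicle and -1.76, -1.96 and -1.80 with corticosterone. The ratio to *Tsc22d2* was -2.41, -2.53 and -2.28 with vehicle and -0.68, -0.96 and -0.77 with corticosterone. In all 3 ratios, which use the same *Tsc22d3* values, the treatment groups were far apart, with shifts of 2.74-fold, 2.75-fold and 3.05-fold. Each had an exact permutation p of 0.1, the smallest possible (0.12 after adjustment over the 6 pairs of members).

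Among the other 3 genes the responses were close. The log2 fold change of *Tsc22d1* minus that of *Tsc22d4* was -0.01 (SE 0.06, exact permutation p = 1). The log2 ratio of *Tsc22d1* to *Tsc22d2* ranged from 0.85 to 0.94 with vehicle and from 1.00 to 1.09 with corticosterone, a difference of 0.15 (SE 0.04). The log2 ratio of *Tsc22d2* to *Tsc22d4* ranged from 0.37 to 0.53 with vehicle and from 0.21 to 0.36 with corticosterone, a difference of -0.16 (SE 0.07). Both differences had an exact permutation p of 0.1 (0.12 adjusted), the smallest that these libraries allow. Against both relatives, *Tsc22d2* was thus lower with corticosterone without overlap between treatments. Both ratios use the same *Tsc22d2* values, so they are not separate results. The share of all gene pairs whose ratio does not overlap was not computed.

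To compare levels between members, normalized counts were divided by the length of the merged exons in kb. With vehicle, *Tsc22d1* stood highest with 559 ± 16.1 normalized counts per kb (SD, n = 3), *Tsc22d4* and *Tsc22d2* followed with 268 ± 10.2 and 241 ± 6.65, and *Tsc22d3* was lowest with 118 ± 7.05. With corticosterone, *Tsc22d3* was second with 331 ± 21.5 per kb, after *Tsc22d1* with 572 ± 14.9 and before *Tsc22d4* with 275 ± 9.66 and *Tsc22d2* with 223 ± 11.8. No neighbours in either order overlapped between libraries on this scale. The order of *Tsc22d3* and *Tsc22d4* depended on the length used. Per kb of the longest transcript, *Tsc22d3* had 464 to 525 with corticosterone and *Tsc22d4* had 507 to 540, so these overlapped. That *Tsc22d3* transcript (2876 bases) retains an intron and is not coding, and the coding transcripts of this gene have 952 to 1974 bases. In the other members the longest transcript is coding.

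As a share of the summed family level per kb of merged exons, *Tsc22d3* made up 9.97%, 9.32% and 10.5% with vehicle and 24.7%, 22.2% and 24.0% with corticosterone. The mean share went from 9.92% ± 0.578 to 23.6% ± 1.27 (SD, n = 3), or from 9.03% to 21.7% per kb of the longest transcript. The shares of the other members were correspondingly smaller with corticosterone, at 40.8% against 47.2% for *Tsc22d1*, 19.7% against 22.6% for *Tsc22d4* and 15.9% against 20.3% for *Tsc22d2*. The summed family level was 1186 ± 8.29 with vehicle and 1401 ± 40.2 with corticosterone, 18.2% more. Of this difference of 216 normalized counts per kb, *Tsc22d3* contributed 214, *Tsc22d1* 12.8, *Tsc22d4* 7.50 and *Tsc22d2* -18.4.

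**Figure D3:**
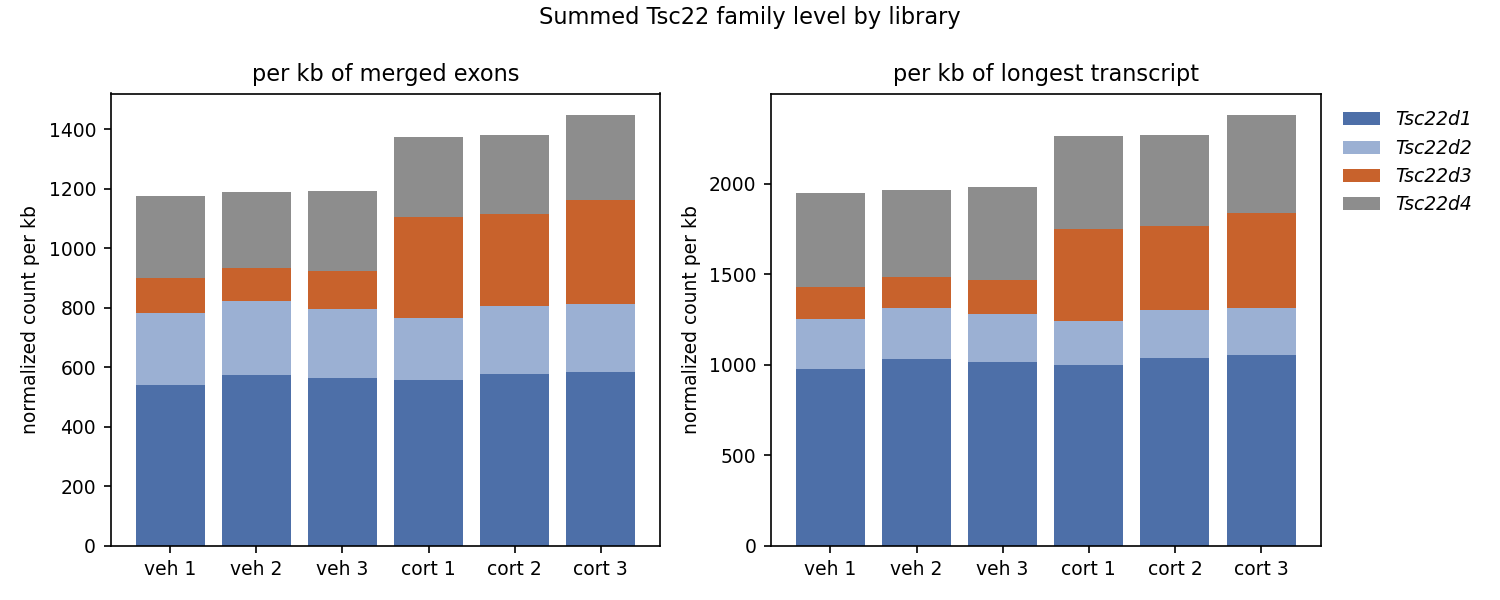
Summed level of the 4 family genes in each of the 3 vehicle (veh) and 3 corticosterone (cort) libraries, in normalized counts per kb of merged exons (left) and per kb of the longest transcript (right), with 1 stacked bar per library. The Tsc22d3 segment widens with corticosterone on both scales, while the other 3 segments are of similar height in both groups.

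Promoter sequence was available from RefSeq (GRCm38.p6; 250 bases before to 50 after a start site) for 2 of the 4 members, with 5 windows of *Tsc22d1* and 3 of *Tsc22d3*. The palindromic glucocorticoid response element, AGAACA and TGTTCT with any 3 bases between them, occurred in none of these 8 windows and in 3 of 32817 promoters of all genes (0.00914%). Its single arm AGAACA, searched on both strands and part of the full element, occurred in 1 window of *Tsc22d1* and 1 of *Tsc22d3*, and in 19.0% of all promoters. The cAMP response element TGACGTCA occurred in none of the 8 windows and in 1.79% of all promoters. The arm in *Tsc22d3* lies at bases 66 to 71 of the window chrX:140600473-140600772. The bases of that window upstream of every annotated *Tsc22d3* transcript, chrX:140600660-140600772, are printed 5′ to 3′ on the minus strand, with the arm, which reads TGTTCT on the strand of the gene, in capitals.
Tsc22d3 upstream: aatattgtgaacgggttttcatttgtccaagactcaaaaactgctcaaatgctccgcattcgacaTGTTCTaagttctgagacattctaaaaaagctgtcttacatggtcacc

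Such a match describes letters only, and sequence farther from the start sites was not analysed here. The coding *Tsc22d3* transcript that starts at chrX:140600659 has its start inside the window with the arm. The coding *Tsc22d3* transcripts that start at chrX:140543187 and chrX:140548338 have their starts outside every window. Some coding starts of *Tsc22d1* also lie outside. The promoters of these transcripts were thus not searched in full, and absence of the element there was not tested.

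Genes with which the long family members act in cell volume control were examined as an NRBP-WNK list. Of 14 genes, 2 rose, 3 fell and 9 did not pass the test, with a median log2 fold change of 0.07 against -0.01 for all genes. Among the 12 with a mean of at least 100, 41.7% passed, and 32.6% of all genes at that level did. Without a trend of the variance with level in the limma fit, 2 of the 14 passed. The share of all genes that pass in that fit was not computed. *Nrbp1*, the pseudokinase partner, fell from 3227 ± 63.4 to 2737 ± 103 normalized counts (log2 fold change -0.24, SE 0.04). *Nrbp2*, its paralog, rose from 268 ± 24.0 to 403 ± 21.4 (0.59, SE 0.09). *Wnk2* fell from 168 ± 14.0 to 39.6 ± 2.03 (-2.08, SE 0.15) and was the only gene of the list past a log2 fold change of 1 in absolute size. *Wnk1*, the kinase of the list with the highest normalized count, not divided by length, had 8681 ± 206 and 8717 ± 85.9 (0.01, limma adjusted p = 0.96). The kinases downstream of WNK, *Stk39* (SPAK) and *Oxsr1*, had log2 fold changes of 0.12 and 0.14, and neither passed the test. The sodium-potassium-chloride importer *Slc12a2* rose from 1312 ± 111 to 1738 ± 65.5 (0.41, SE 0.06), and the potassium-chloride exporter *Slc12a7* fell from 2888 ± 26.8 to 2365 ± 95.3 (-0.29, SE 0.04). *Wnk3* had 0 to 10 reads per library, too few to compare.

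The TGF-β and Smad genes were examined because *Tsc22d1* was first described downstream of this cytokine. Of 12 genes, 4 rose, 3 fell and 5 did not pass the test (58.3% passed, against 32.6% of all genes at that level), with a median log2 fold change of 0.05. Without the variance trend, 4 of the 12 passed, and the share of all genes in that fit was not computed. The receptors *Tgfbr3*, or betaglycan, and *Tgfbr2* rose, from 3499 ± 73.9 to 6940 ± 141 (0.99, SE 0.04) and from 4924 ± 38.4 to 6534 ± 82.4 (0.41, SE 0.04). Of the ligands, *Tgfb2* fell from 758 ± 103 to 427 ± 35.0 (-0.82, SE 0.09) and *Tgfb1* from 1231 ± 92.6 to 1007 ± 19.7 (-0.29, SE 0.06), while *Tgfb3* did not pass the test (0.16, limma adjusted p = 0.052). Among the signal transducers, *Smad3* rose by 0.37 (SE 0.05), *Smad2* fell by 0.30 (SE 0.07) on the log2 scale, and the common *Smad4* did not pass the test (0.07). The inhibitory *Smad7* rose by 0.39 (SE 0.07). Genes of this list thus moved in both directions, beside a *Tsc22d1* log2 fold change of 0.03.

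Partners, targets and regulators of GILZ formed the list closest to the member that rose. Of 17 genes, 16 were analysed, of which 5 rose, 2 fell and 9 did not pass the test (43.8% passed, against 32.6% of all genes averaging 100 or more, as all 16 did), with a median of 0.01. Without vehicle replicate 3, 4 of them passed, and without the variance trend 3 did. The shares of all genes passing in these fits were not computed, so the drop cannot be set against that of other genes. The glucocorticoid receptor *Nr3c1* fell from 2912 ± 12.2 to 2150 ± 103 normalized counts (-0.44, SE 0.05). *Foxo3*, which encodes a transcription factor that acts on the GILZ gene, rose from 8117 ± 118 to 10643 ± 172 (0.39, SE 0.04), and its paralog *Foxo1* rose by 0.28 (SE 0.08). *Cebpb*, encoding the C/EBPβ factor of adipogenesis, rose from 3170 ± 283 to 4466 ± 139 (0.50, SE 0.06).

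*Rela*, which encodes the p65 partner of GILZ, did not pass the test (-0.15, limma adjusted p = 0.072), and neither did *Hras* (-0.12). *Nfkb1*, encoding the p50 precursor, rose by 0.20 (SE 0.04). Of the AP-1 genes, *Jun* rose by 0.24 (SE 0.05), whereas *Fos* did not pass the test (-0.40, limma adjusted p = 0.090). *Mapk3*, encoding the kinase ERK1, fell by 0.15 on the log2 scale (SE 0.04). None of the 16 exceeded a log2 fold change of 0.50 in absolute size, against 1.49 for *Tsc22d3*.

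**Figure D4:**
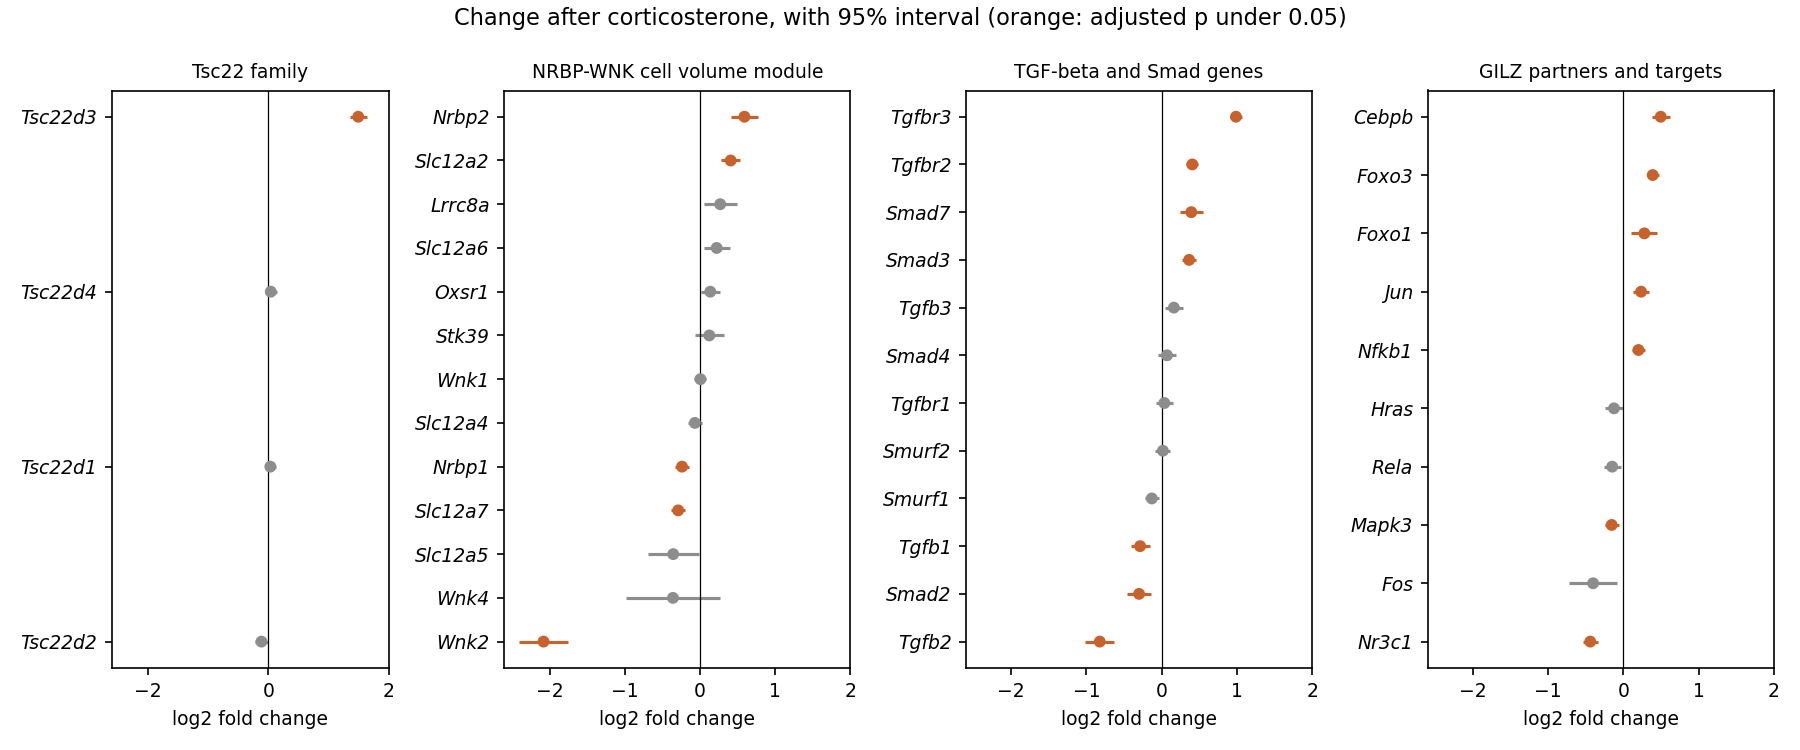
Log2 fold change (corticosterone minus vehicle) with its 95% interval for the 4 family genes and for genes of the 3 lists, without Wnk3, which had at most 10 reads in any library, and without the GILZ list genes not reported singly, with orange points for an adjusted p under 0.05. Tsc22d3 stands at 1.49 with the other 3 members near 0, and each list holds genes on both sides of 0.

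The 3 genes with the pattern most like each member were found by Pearson's r over the 6 libraries, among the 10558 genes averaging 100 or more. For *Tsc22d3* these were *Nuak1*, a kinase gene, *Mcf2l*, a guanine nucleotide exchange factor gene, and *Per2*, a clock gene, each with r = 0.999. *Nuak1* had a mean of 2089 with vehicle and 4152 with corticosterone (log2 fold change 0.99), *Mcf2l* 126 and 407 (1.69), and *Per2* 866 and 2185 (1.33). For *Tsc22d1* they were *Washc2* (r = 0.981), *Gabarapl2* (0.966) and *Top3b* (0.962). For *Tsc22d2* they were *Ift140* (0.991), *Slc9a9* (0.989) and *Anks1* (0.989), and for *Tsc22d4* they were *Kat7* (0.999), *Tle6* (0.990) and *Tmem88* (0.988). Of these 12 genes, those chosen for *Tsc22d3* passed the test and the other 9 did not, against 32.6% passing of all genes at that level. Genes chosen for likeness to a member over the same libraries tend to share its outcome, so this count is not a separate result. The 6 points share the treatment and the size factors, and since *Tsc22d3* did not overlap between treatments, genes that differ by treatment in the same direction have a high r with it.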

How the data were processed

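RNA of 3 vehicle and 3 corticosterone cultures was sequenced commercially (Illumina) with libraries from a NEBNext Ultra kit. The submitters' processing notes name mm10. The aligner, counting program, annotation and use of strand are not given in the sources used here, and the authors tested with DESeq2. The authors deposited 1 non-negative signal per gene and library, named FPKM. Every value was a whole multiple of 1 step per library, for genes of any length (100% within a tolerance of 0.02), so the table holds read counts divided by a size factor. A gene at the floor of 3 reads has a normalized count of 2.32 to 3.84, which covers counting error only.

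The planned test was limma 3.58.1 (lmFit, eBayes with trend, R 4.3.3) on log2(value + 0.1), keeping means from 0.1 up, and p-values were adjusted by Benjamini-Hochberg over all 24016 genes. It assumed FPKM and was kept, and edgeR 4.0.16 (quasi-likelihood) and DESeq2 1.42.0 were run on the recovered reads. "Passed the test" means an adjusted p under 0.05. On simulated counts limma recovered 194 of 200 genes changed by a log2 fold change of 2 among 23710, with 0 false calls. A call there needed an adjusted p under 0.05 and also an absolute log2 fold change over 1. Smaller changes were not simulated and calls on adjusted p alone were not counted, so these numbers do not cover them. Single ratios had two-sided exact permutation tests. The labels call the replicates biological. Libraries with the same replicate number showed no shared deviation from their group means (correlations of deviations -0.04 to 0.02). This cannot show whether those cultures were set up together.

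Other alternatives were pseudocounts of 1 and 0.01, filters of 1, 10 and none, no variance trend, the replicate block, 3 scalings and leaving out each library. The members and lists were chosen with earlier results of these data known. The genes named were the members, genes of the lists and the 3 most alike per member. Windows, lengths and 31-mers came from GENCODE M21 and promoters from RefSeq, with Python 3.11.15 and scipy 1.17.1. *Pparg* of the GILZ list was not analysed here, nor were proteins or the regions around the genes. Single values of some GILZ list genes are not reported here, while the counts include them.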

Additional observations from a re-analysis of the deposited data

How the results depend on the processing

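The rise of *Tsc22d3* passed the test under every alternative run, with log2 fold changes of 1.45 to 1.55 without single libraries and 1.45 to 1.498 otherwise, and limma, edgeR and DESeq2 adjusted p-values of at most 0.0030. With the replicate block it was 1.49 (limma adjusted p = 4.7e-09), and the block changed no call of a member or count for a list. Scaling to the same total gave -0.0089 for *Tsc22d1*, -0.0018 for *Tsc22d4* and -0.16 for *Tsc22d2*. Quantile normalization gave -0.067 for *Tsc22d1* and -0.16 for *Tsc22d2*. Under each, 2 members passed the test, and the share of all genes passing there was not computed. The same-total scaling moved the median of all genes from -0.01 to -0.05. Without single libraries, *Tsc22d1* ran from 0.01 to 0.05, *Tsc22d2* from -0.14 to -0.07 and *Tsc22d4* from 0.01 to 0.06, with 1 member passing each time.

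The response of *Tsc22d3* minus that of a paralog was 1.40 to 1.52 (*Tsc22d1*), 1.55 to 1.69 (*Tsc22d2*) and 1.43 to 1.49 (*Tsc22d4*) without single libraries. Its share of the family was then 23.1% to 24.3%, and 21.7% per kb of the longest transcript. Without the variance trend, 2 NRBP-WNK, 4 TGF-β and 3 GILZ list genes passed, and without single libraries 5, 5 to 8 and 4 to 7. Shares of all genes passing in these fits were not computed. Genes past both thresholds numbered 668, 483 to 589 without single libraries and 514 to 716 otherwise. The causes were not tested. With 3 libraries a group, differences the size of that of *Tsc22d2* lie near what the test could call, and ratios could not reach an exact permutation p under 0.1.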
